A study of Rattus norvegicus with 40 samples.

Results

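T cells isolated from the kidney were compared with circulating T cells from the blood of SS/CRL rats that had eaten high-salt chow (HS) for 3 weeks and were 10 weeks old. The comparison uses 8 of the 40 libraries of the series, 4 from each tissue, and each library is a pool of 3 rats, so each tissue group stands for 12 rats. SS denotes the Dahl salt-sensitive rat, an inbred model in which dietary salt raises blood pressure and damages the kidney, and CRL and MCW mark rats of different colonies, which are known to be kept on different base chows. All 31677 gene models of the comparison were included, since the members are all gene models of 1 contrast and none was chosen by its value. The labels give no genetic alteration and no drug for any group. The same tissue contrast in SS/CRL rats on low-salt chow (LS) and in SS/MCW rats on HS, both at 10 weeks, serves below only to show where these rats differ. Whether the kidney and circulating pools came from the same rats is not stated, nor is the marker by which the T cells were isolated.

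As background, T cells carry the CD3 chains beside their antigen receptor, and circulate between blood and lymph nodes under the control of homing and egress receptors such as CCR7 and S1PR1. Cells that enter a tissue and stay there lose this recirculation program and can take up integrins and surface proteins of residency. In the salt-loaded SS rat, T cells infiltrate the kidney and are known to contribute to hypertension and renal damage. The kidney itself is made mostly of nephron epithelium, whose segments are marked by their transporters, and epithelium is rich in mitochondria.

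The libraries labelled kidney T cells held T cell genes at a low level beside abundant nephron genes. The CD3 list made up 0.0371% of all kidney FPKM and 0.720% of all circulating FPKM. Proximal tubule enzymes made up 1.30% of kidney FPKM and 0.0030% of circulating FPKM, and proximal tubule transporters 0.618% and 0.0009%. The part of these other cells' RNA in the results below was not tested.

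Expression is given as the authors' FPKM (fragments scaled by transcript length and library size), 1 value per tissue group. The spread among the 4 pools of a group cannot be shown, and neither the depth nor the position of 1 library among the others is known here. A gene is said to be higher or lower, or to have risen or fallen in the kidney, where the Cuffdiff q was under 0.05. Each log2 fold change is kidney over circulating, and its standard error (SE) was obtained by dividing that log2 value by Cuffdiff's statistic, over 4 pools a group. Of 24977 tested gene models 7635 were called higher in kidney cells (30.6%) and 5067 lower (20.3%), 50.9% in all. The median log2 fold change was 0.46 over the 18231 tested gene models above 0 in both groups that reached 1 FPKM in either, and -0.22 over the 6961 with at least 5 FPKM in both. The calls above 0 in both groups had a median of 2.23 where higher (4128 gene models) and -1.51 where lower (4331). Rises also reached further, with 110 calls of at least 10 log2 units upwards and 0 downwards.

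**Figure D1:**
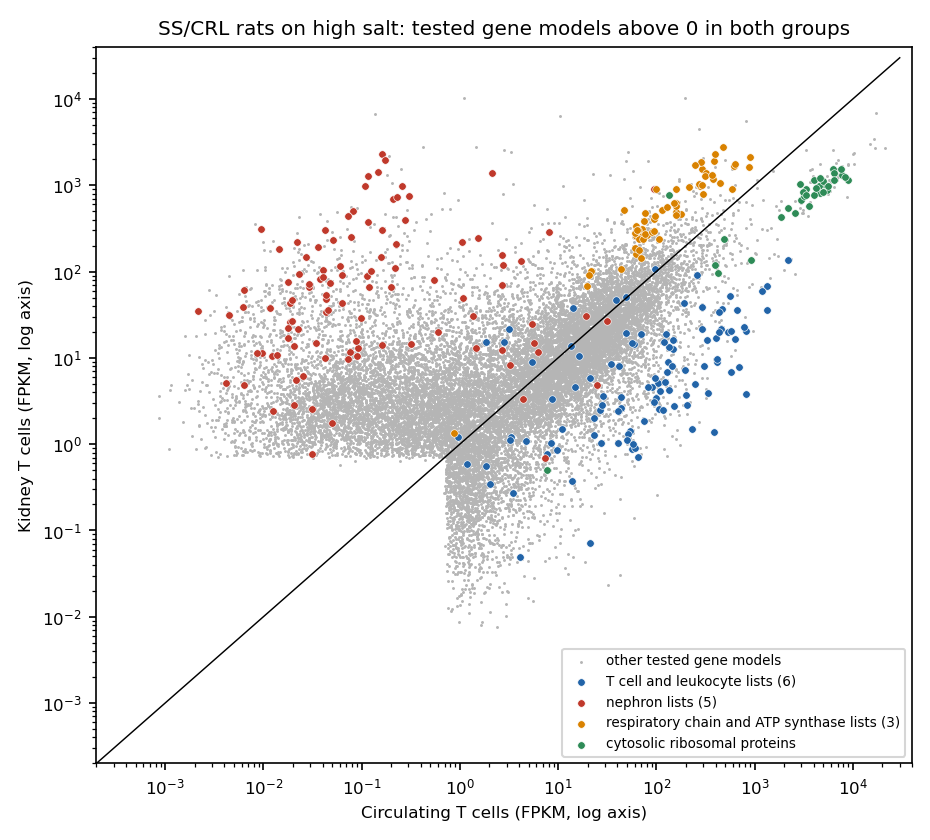
FPKM in kidney T cells (vertical) against circulating T cells (horizontal) of SS/CRL rats on high salt, both on log axes, 1 point per tested gene model above 0 in both groups, with the line of equal values. Most T cell and leukocyte genes (blue) lie below the line, most nephron genes (red) far above it at circulating values under 1 FPKM, respiratory genes (orange) above it, and most ribosomal protein genes (green) below it at the upper right.

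The T cell receptor complex was present in the kidney libraries at a small part of its circulating level. Of 21 genes for CD3 chains and the first kinases and adaptors of the receptor, 20 were lower in the kidney and 0 were higher, with a median log2 fold change of -5.10, which is 2.91% of the circulating FPKM. Cd3e (chromosome 8, 47915615 to 47926788, build rn5), the CD3 epsilon chain, stood at 822 FPKM in circulating and 20.5 FPKM in kidney cells, a log2 fold change of -5.33 ± 0.42 (SE). Its neighbours Cd3d and Cd3g, the delta and gamma chains, had 780 and 1339 FPKM in circulating cells and 22.7 and 36.2 FPKM in kidney cells. Cd247, the zeta chain on chromosome 13, fell from 303 to 8.04 FPKM (-5.23 ± 0.43). These 4 chains stood within a narrow range, 2.49% to 2.91% of the circulating value. Lck, the kinase that starts receptor signaling, fell from 541 to 19.9 FPKM, and Lat, an adaptor of the same pathway, from 567 to 51.5 FPKM. Thy1 alone was not called, at 1.84 and 0.559 FPKM. The constant segment of the receptor's alpha chain, Trac, which is on no list and was chosen after its value was seen, fell from 1160 to 65.4 FPKM. In such bulk samples fewer T cells and less T cell RNA per cell cannot be told apart.

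Coreceptors and lineage factors fell too, but less evenly. Of 13 genes 11 were lower and 2 higher, with a median of -3.53. Cd4, the helper coreceptor (chromosome 4, 224399605 to 224426114), fell from 133 to 4.23 FPKM (-4.98 ± 0.48). Cd8a, the alpha chain of the cytotoxic coreceptor, fell from 468 to 36.4 FPKM (-3.69 ± 0.43), and Cd8b, its beta chain, from 98.5 to 3.42 FPKM (-4.85 ± 0.68). The kidney value was therefore 3.18% of the circulating one for Cd4, 3.48% for Cd8b and 7.77% for Cd8a. The transcription factors of helper lineages kept larger shares: Gata3 (type 2) 24.4%, Foxp3 (regulatory cells) 31.4% and Tbx21 (type 1) 38.7%, and all of them fell. Of the members that rose, Bcl6, a transcriptional repressor that follicular helper cells and other tissues express, went from 5.43 to 9.04 FPKM (0.73 ± 0.41).

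The genes of naive and recirculating T cells showed the lowest median of the T cell lists, -6.21, and all 13 matched were lower. Ccr7, the receptor for entry into lymph nodes, stood at 388 FPKM in circulating and 1.38 FPKM in kidney cells (-8.13 ± 2.15). S1pr1, the receptor for egress into the blood, fell from 411 to 8.98 FPKM, and Klf2, the factor that drives S1pr1, from 437 to 34.0 FPKM. Tcf7 and Lef1, transcription factors of naive cells, fell from 571 to 6.78 FPKM and from 207 to 2.81 FPKM. Ccr7 thus kept a smaller part of its circulating level than any of the CD3 chains. Ccr9, a homing receptor for the gut, had the largest fall among the genes ranked for size (21.3 to 0.0713 FPKM, -8.22 ± 4.23). Ranked genes were called, had 1 symbol, reached 5 FPKM in either tissue and were above 0 in both.

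Other large falls included genes of lymphocytes. Cd40lg, the ligand by which helper cells activate B cells, fell from 129 to 0.731 FPKM (-7.46 ± 1.55), and Il21r, the interleukin-21 receptor, from 163 to 1.45 FPKM (-6.82 ± 1.21). Art2b, an ADP-ribosyltransferase on the surface of rat T cells, fell from 229 to 1.48 FPKM (-7.27 ± 1.24), and Tspan32, a tetraspanin of blood cells, from 145 to 1.26 FPKM. Ms4a4c (207 to 2.26 FPKM), Ifi202b (322 to 3.43 FPKM), Treml2 (58.9 to 0.562 FPKM), Mcart1l (42.8 to 0.229 FPKM) and RGD1560849 (29.0 to 0.158 FPKM) were also among the largest falls. The genes listed at 0 in kidney cells with the highest circulating values were low ones, led by Tmem163 at 9.67 FPKM, RGD1564405 at 7.47, Mettl24 at 6.94, Pglyrp2 at 5.66 and the receptor segment Trav7-2 at 5.58.

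Promoter windows of these genes (250 bases before to 50 after the start, from RefSeq, build GRCr8) were searched for 4 motifs on both strands, and 16 of the 25 largest falls and 19 of the 25 largest rises matched a window by symbol. A loose form of the AP-1 motif, TGANTCA with any base at N, was found in 4 of the 16 falls (Art2b, Tspan32, Adam19 and Lef1). It was found in 0 of the 19 rises and in 7.33% of all 33469 windows. The motifs of HNF1 (GTTAATNAT), HNF4 (CAAAGTCCA) and ETS factors (CCGGAAGT) were found in 0 of either set and in 0.747%, 0.391% and 3.81% of all windows. None of the matches overlaps another motif. The windows of Lef1 and Art2b are shown as those of T cell genes among the large falls that hold the motif, with the match in capitals. The Lef1 window (chr2:222340463-222340762, plus strand) has the match 190 bases before the start, and the Art2b window (chr1:165371909-165372208, minus strand) 161 bases before it.
Lef1: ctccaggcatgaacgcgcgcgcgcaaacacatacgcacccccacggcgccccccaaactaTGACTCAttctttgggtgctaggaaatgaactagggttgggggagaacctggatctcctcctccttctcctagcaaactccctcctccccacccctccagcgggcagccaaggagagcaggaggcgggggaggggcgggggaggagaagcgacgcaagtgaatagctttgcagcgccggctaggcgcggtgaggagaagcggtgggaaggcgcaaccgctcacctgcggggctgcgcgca
Art2b: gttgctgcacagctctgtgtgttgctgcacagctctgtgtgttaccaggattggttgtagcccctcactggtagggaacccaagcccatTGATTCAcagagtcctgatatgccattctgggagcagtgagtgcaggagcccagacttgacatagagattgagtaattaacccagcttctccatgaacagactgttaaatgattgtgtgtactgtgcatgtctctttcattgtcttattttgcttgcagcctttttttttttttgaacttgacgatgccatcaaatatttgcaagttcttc
The windows carry different letters at the variable base of the motif, C in Lef1 and T in Art2b, and the search says nothing of binding.

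**Figure D2:**
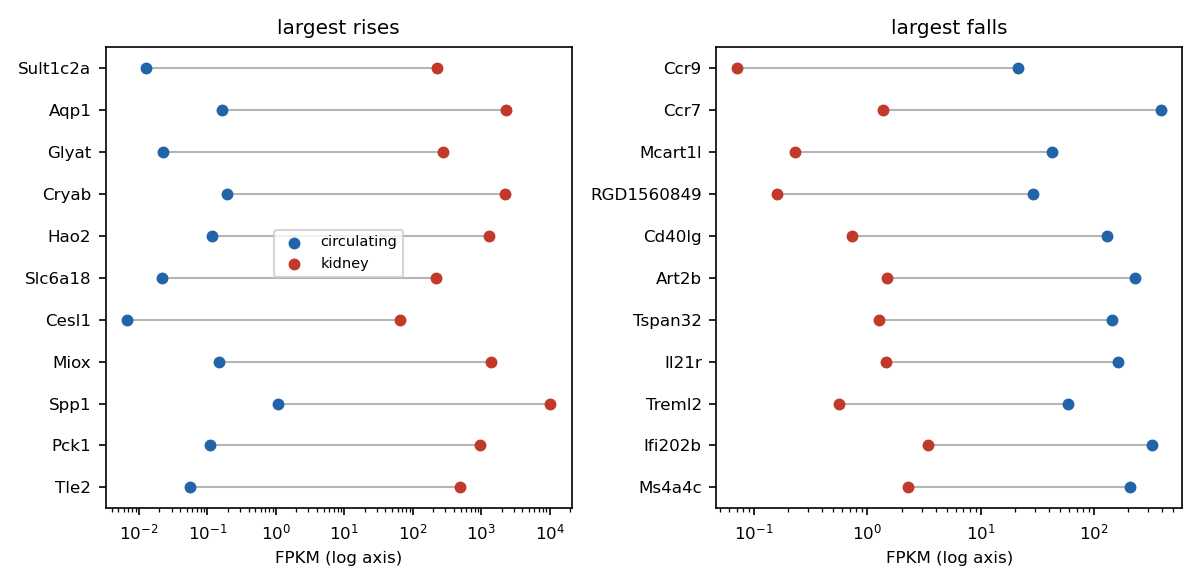
FPKM (log axis) in circulating (blue) and kidney (red) T cells for the largest called rises and falls reported here. The rises start at circulating values of 1.09 FPKM (Spp1) or less, while the falls start at 21.3 FPKM (Ccr9) or more.

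Genes of tissue-resident and activated T cells fell by less. Of 18 tested, 11 were lower and 2 higher, with a median of -2.03, or 24.5% of the circulating level. Cd69, which retains cells in tissue, fell from 131 to 9.01 FPKM (-3.87 ± 0.52), and Itgb7, an integrin chain of gut and epithelial homing, from 146 to 8.08 FPKM. Itgae, the integrin chain CD103 that binds E-cadherin, had 13.4 FPKM in circulating and 13.6 FPKM in kidney cells (0.02 ± 1.75) and was not called. Itga1, the collagen-binding CD49a chain also made by stromal and endothelial cells, rose from 14.2 to 37.6 FPKM (1.41 ± 0.42), but its gene model also carries the symbol Pelo, so the value may not be that of Itga1 alone. Tnfrsf9, the costimulator 4-1BB, rose from 3.16 to 21.5 FPKM (2.77 ± 0.94). Among checkpoint receptors, Ctla4 fell from 26.8 to 2.51 FPKM and Lag3 from 49.4 to 19.6 FPKM, while Pdcd1 was not called at 1.18 and 0.596 FPKM. Tnfrsf4 was not called at 96.6 and 106 FPKM, and its gene model is shared with Sdf4.

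Most cytotoxic and natural killer genes were lower, by widely differing amounts. Of 19 tested, 13 were lower and 1 higher, with a median of -2.91. Klrk1, the activating receptor NKG2D, fell from 198 to 3.71 FPKM (-5.74 ± 0.47), and Prf1, perforin, from 50.8 to 1.11 FPKM (-5.51 ± 0.84). Klrb1c, a natural killer receptor, fell from 61.1 to 0.893 FPKM. The granule genes that fell ranged widely, from Prf1 at 2.19% of its circulating level to Nkg7 at 27.5%, and the chemokine Ccl5 fell from 260 to 92.1 FPKM. Fcer1g and Tyrobp, signaling adaptors of natural killer and myeloid cells alike, were not called, at 48.9 and 50.2 FPKM and at 38.6 and 47.3 FPKM. Xcl1, the chemokine lymphotactin, was the member that rose (2.81 to 15.4 FPKM, 2.45 ± 1.38).

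Among genes shared by all leukocytes, 21 of 22 were lower and 0 higher, with a median of -4.51. Ptprc, CD45 (chromosome 13, 60094038 to 60205939), fell from 700 to 7.85 FPKM (-6.48 ± 0.57), 1.12% of the circulating level. Coro1a, a regulator of leukocyte actin, fell from 1345 to 68.9 FPKM, and Cd52 was not called at 0.960 and 1.22 FPKM. The matched B cell genes made up 0.00902% of all circulating FPKM and 0.00284% of all kidney FPKM. Of 10 tested, 4 were lower and 0 higher, with a median of -3.85, and Cd79b, a chain of the B cell receptor, fell from 30.1 to 2.09 FPKM. Pax5, the B cell factor, had 16.2 and 16.4 FPKM and was not called. Outside the list, 3 immunoglobulin segments summed to 174 FPKM in circulating and 6.86 FPKM in kidney cells, and 1 was called lower. These segments were chosen after values were seen.

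Macrophage and monocyte genes went the other way. Of 18 tested, 12 were higher and 1 lower, with a median of 2.43 over 12 members. The complement genes C1qa, C1qb and C1qc, made by tissue macrophages, were listed at 0 in circulating cells and at 9.59, 6.19 and 10.5 FPKM in kidney cells. Gpnmb, a gene of phagocytes, rose from 0.186 to 4.56 FPKM (4.61 ± 1.48), Cd14 from 0.475 to 9.10 FPKM (4.26 ± 1.43) and Csf1r, the receptor for the macrophage growth factor, from 3.54 to 11.3 FPKM (1.67 ± 0.73). Apoe rose from 12.0 to 191 FPKM (4.00 ± 0.46), though kidney epithelium can also make it. Ctss, a protease of antigen-presenting cells, was the member that fell (108 to 10.2 FPKM). The complement genes were low in absolute terms, with C1qc, the highest of the complement genes, at 10.5 FPKM in the kidney.

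Of 8 tested genes of MHC class II and dendritic cells 2 were higher and 0 lower (median 0.15). Cd74, the invariant chain, had 224 and 311 FPKM (0.47 ± 0.34), and RT1-Bb 25.7 and 35.1 FPKM. Neutrophil genes gave 2 tested members, S100a8 (4.89 and 0.438 FPKM) and S100a9 (3.94 and 3.25 FPKM), and neither was called. Among 6 platelet genes, Pf4 fell (49.1 to 20.8 FPKM) and Itga2b rose (2.65 to 4.35 FPKM), with a median of -0.44. Red cell genes were higher in the kidney in 4 of 5 tested (median 1.96). Hba1, alpha globin, rose from 83.1 to 323 FPKM (1.96 ± 0.40).

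**Figure D3:**
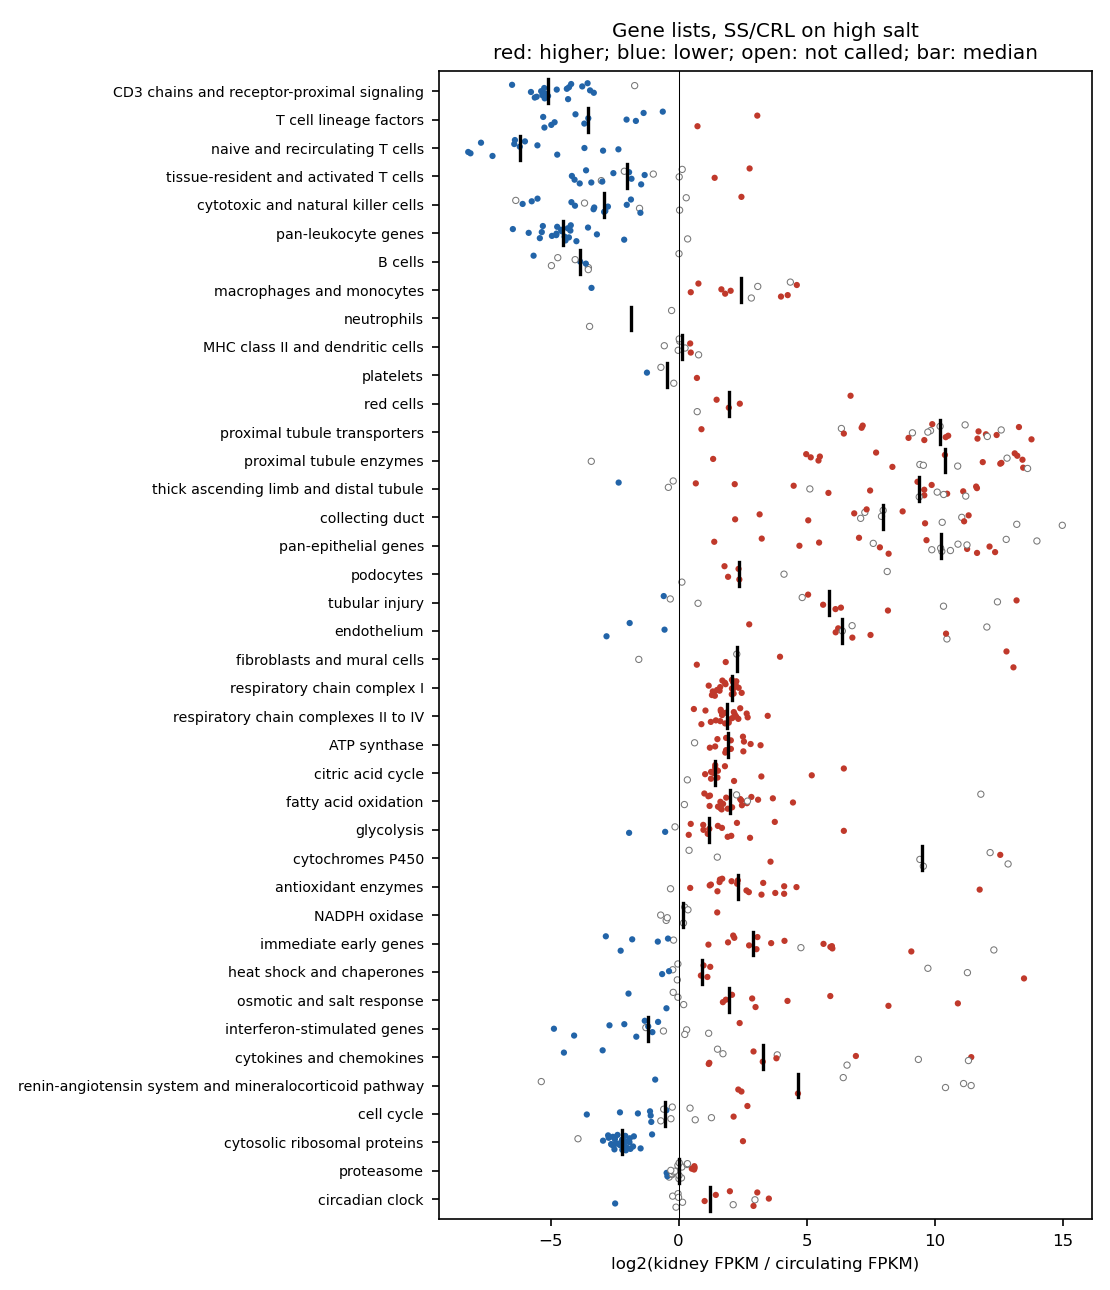
log2 fold change, kidney over circulating, of members of 40 gene lists that reached 1 FPKM in either tissue and were above 0 in both, 1 point per gene model. Red points were called higher, blue lower, open ones not called, and the bar is the median, from -6.21 for naive and recirculating T cells to 10.4 for proximal tubule enzymes.

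Nephron genes made up the other side of the comparison. The most abundant gene with a symbol in the kidney libraries was Spp1, osteopontin, a secreted matrix protein of tubules and of activated immune cells, at 10275 FPKM against 1.09 FPKM in circulating cells (13.20 ± 1.15). In the circulating libraries that place was held by Tmsb4x, thymosin beta 4, an actin-binding protein abundant in lymphocytes, at 21046 FPKM against 2718 FPKM in the kidney. Fxyd2, the gamma subunit of the sodium pump, reached 2809 FPKM in the kidney and Mt2A, a metallothionein, 2568 FPKM. Aqp1, the water channel of the proximal tubule and thin limb (chromosome 4, 150203460 to 150215641), stood at 0.162 and 2279 FPKM (13.78 ± 1.52).

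Of 27 proximal tubule transporters tested, 19 were higher and 0 lower, and their median was 10.2 over the 23 with a value above 0 in both groups. Slc34a1, the main phosphate transporter (chromosome 17, 11856821 to 11872100), had 0.209 FPKM in circulating and 702 FPKM in kidney cells (11.71 ± 1.40). Slc22a6, the organic anion transporter OAT1, rose from 0.0272 to 149 FPKM (12.42 ± 5.98) and Slc5a2, the glucose transporter SGLT2, from 0.0921 to 13.0 FPKM. Slc7a13, a cystine transporter, was listed at 0 in circulating cells and at 58.1 FPKM in kidney cells. Proximal tubule enzymes were higher in 16 of 22 tested and lower in 0, with a median of 10.4. They include Miox, which degrades inositol (0.147 to 1406 FPKM, 13.23 ± 2.80), Hao2 (0.116 to 1284 FPKM, 13.43 ± 1.86) and Pck1, a gluconeogenic enzyme (0.108 to 969 FPKM, 13.13 ± 1.71). Agxt2, at 0.0143 and 182 FPKM, and Slc13a3, at 0.0179 and 76.2 FPKM, were not called despite values of the same kind.

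Later segments were present as well. Of 21 genes of the thick ascending limb and distal tubule, 13 were higher and 1 lower (median 9.40). Umod, uromodulin, the protein that the thick limb secretes into urine (chromosome 1, 196127948 to 196141956), stood at 2.15 and 1380 FPKM (9.33 ± 0.71). Slc12a1, the sodium-potassium-chloride cotransporter of that segment, stood at 0.158 and 149 FPKM, and Slc12a3, the thiazide-sensitive cotransporter of the distal tubule, at 5.37 and 24.5 FPKM (2.19 ± 0.84). Trpm6, a magnesium channel, was the member that fell, from 24.9 to 4.91 FPKM. Among 22 collecting duct genes 13 were higher and 0 lower (median 7.99). Hsd11b2, which shields the mineralocorticoid receptor from glucocorticoid, rose from 0.0406 to 104 FPKM, and Scnn1a, a subunit of the epithelial sodium channel, from 0.0907 to 10.5 FPKM (6.86 ± 1.56). Aqp2, the vasopressin-regulated water channel, had 0.00957 and 311 FPKM and a log2 difference of 14.99 ± 11.65, and was not called. Of 22 genes common to epithelia 13 were higher and 0 lower (median 10.2), among them Epcam (0.304 to 750 FPKM) and the nephron transcription factor Pax8 (0.125 to 102 FPKM).

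The test left many such differences uncalled. The share of tested gene models called was 50.9% as reported, 44.4% at q under 0.01, 52.3% among those that reached 1 FPKM, 43.6% among those above 0 in both groups, 43.3% with a minimum of 2-fold and 61.7% among those with 1 symbol on 1 gene model. It was 26.5% when a normal p of the test statistic was used and 26.4% when that was recentred. Of 1727 tested gene models at least 5 log2 units higher in the kidney and with at least 5 FPKM there, 1027 (59.5%) were not called, against 50 of 187 (26.7%) as far lower. Conversely, 2631 of the 8459 calls above 0 in both groups (31.1%) had a test statistic below 1.96, the point at which a normal test reaches 0.05. Of the 12 largest rises these were Sult1c2a, Glyat, Slc6a18 and Cesl1, and of the 12 largest falls Ccr9.

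The circulating values of the nephron genes, which are the denominators of these folds, were not alike in the groups of rats. Of 104 members of the 5 nephron lists at least 10-fold higher in the kidney, 10 were listed at 0 in these circulating cells, 40 in those of SS/CRL rats on LS and 36 in those of SS/MCW rats on HS. In the authors' tables of circulating cells, 77 of the 104 had a higher value than on LS and 18 a lower one, and 75 a higher value than in SS/MCW rats and 22 a lower one. Umod stood at 1.93 FPKM in circulating cells on HS and at 0 on LS, and was called higher on HS (q = 0.0106 in the authors' deposited table). Only 12 of the 104 reached a test against LS, and 1 was called. Against SS/MCW rats 12 were tested and 0 called, Umod among those not called, at 1.87 FPKM here and 0.00945 FPKM there. The same counts over all gene models are not given here. What set these circulating values was not tested.

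Genes of other resident cell types of the kidney were called as well, mostly higher. Podocyte genes were higher in 7 of 10 tested and lower in 0 (median 2.34), and Wt1, the podocyte factor, was listed at 0 in circulating and at 2.53 FPKM in kidney cells. The defining podocyte gene Nphs1 stayed at 0.223 FPKM in the kidney and was not tested. Endothelial genes were higher in 8 of 15 and lower in 3 (median 6.39). Esam, an adhesion molecule of endothelium, rose from 0.0804 to 112 FPKM (10.44 ± 2.45) and Emcn, endomucin, was listed at 0 and 38.9 FPKM. Those that fell were Pecam1 (31.6 to 21.6 FPKM), Vwf (19.4 to 5.16 FPKM) and Ehd3 (81.1 to 11.5 FPKM), of which Pecam1 is also made by leukocytes. Genes of fibroblasts and mural cells were higher in 8 of 11 and lower in 0 (median 2.27). Timp3, a protease inhibitor of the matrix, rose from 0.0778 to 557 FPKM, Col4a1, a basement membrane collagen, from 0.00744 to 64.3 FPKM, and Sparc from 8.31 to 129 FPKM. The fibrillar collagen genes Col1a1 and Col3a1 were at 0.0947 and 0.657 FPKM in the kidney and not tested.

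Genes of tubular injury were higher in 7 of 13 and lower in 1 (median 5.88). Havcr1, the injury marker KIM-1, rose from 0.122 to 6.11 FPKM (5.64 ± 1.67), Clu, clusterin, from 2.96 to 240 FPKM (6.34 ± 0.62), and Cd24 from 2.77 to 802 FPKM. Lcn2, the marker NGAL, had 0.0272 and 152 FPKM and was not called. Vim, vimentin, which leukocytes also make in quantity, fell from 453 to 302 FPKM (-0.58 ± 0.36).

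Nearly all mitochondrial genes listed were higher in the kidney. All 23 tested genes of complex I and all 22 of complexes II to IV were higher, with medians of 2.07 and 1.90, and 13 of 14 ATP synthase genes (median 1.95). Cox8a, a subunit of cytochrome oxidase, rose from 284 to 1839 FPKM (2.69 ± 0.35), Cycs, cytochrome c, from 46.5 to 518 FPKM (3.48 ± 0.36) and Atp5b, the catalytic subunit of ATP synthase, from 396 to 2281 FPKM (2.53 ± 0.48). Complex I members lay between 1.17 and 2.46 log2 units, which is narrow beside the spread of the nephron lists. The citric acid cycle was higher in 14 of 15 genes (median 1.43), among them Pc, pyruvate carboxylase (0.589 to 51.5 FPKM), and Idh2 (18.3 to 674 FPKM, 5.20 ± 0.39). Fatty acid oxidation was higher in 20 of 24 (median 2.00). Cpt1a, which admits long-chain fatty acids to mitochondria, had 23.8 and 27.8 FPKM and was not called.

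Glycolytic genes were higher in 14 of 17 and lower in 2 (median 1.20). The lactate dehydrogenase genes moved in opposite directions: Ldhb, the form of oxidative tissues, rose from 11.1 to 973 FPKM (6.45 ± 0.46), and Ldha, the form of glycolytic cells, fell from 296 to 206 FPKM (-0.53 ± 0.33). Hk2, the inducible hexokinase of activated T cells, fell from 6.06 to 1.58 FPKM (-1.94 ± 0.55), and Hk1 rose from 34.7 to 76.2 FPKM. Antioxidant enzymes were higher in 20 of 21 (median 2.30), with Gpx1 at 169 and 1128 FPKM and catalase, Cat, at 23.0 and 217 FPKM (3.24 ± 0.36). Of 8 NADPH oxidase genes 2 were higher and 0 lower (median 0.19). Nox4, the oxidase of renal epithelium, was listed at 0 and 11.3 FPKM, while Cybb, the catalytic subunit of phagocytes, was not called at 5.17 and 3.69 FPKM. Cytochrome P450 genes were higher in 4 of 10 tested (median 9.49), and the largest value, 443 FPKM against 0.0733 FPKM, belongs to 1 gene model that carries the symbols Cyp4a2, Cyp4a8 and Cyp4b1.

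Immediate early genes, which respond within minutes to stimulation and to tissue handling, were higher in 14 of 22 and lower in 5 (median 2.90). Fos rose from 5.26 to 320 FPKM (5.93 ± 0.50), Egr1 from 1.08 to 69.4 FPKM (6.00 ± 0.65), Jun from 23.1 to 283 FPKM (3.61 ± 0.40) and Atf3 from 0.139 to 75.6 FPKM (9.09 ± 1.62). Those that fell are abundant in lymphocytes: Btg2 (317 to 65.9 FPKM), Myc (80.0 to 22.7 FPKM), Tnfaip3 (48.5 to 6.74 FPKM), Jund (288 to 164 FPKM) and Nfkbia (97.7 to 73.2 FPKM). Heat shock and chaperone genes were higher in 6 of 13 and lower in 2 (median 0.92). Cryab, a small heat shock protein of the renal medulla and muscle, rose from 0.192 to 2208 FPKM (13.49 ± 3.35), Hsp90ab1 fell from 930 to 594 FPKM, and Hspa5 fell from 199 to 153 FPKM (-0.38 ± 0.33), a difference that depends on the table its values come from.

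Of 14 osmotic and salt response genes 9 were higher and 2 lower (median 1.96). Nfat5, the factor that switches on genes in hypertonic surroundings, rose from 13.8 to 49.7 FPKM (1.84 ± 0.36), Slc6a12, the betaine transporter it controls, from 0.519 to 31.5 FPKM (5.92 ± 1.49), and Sgk1, the salt-sensing kinase, from 8.89 to 65.0 FPKM (2.87 ± 0.38). Akr1b1, aldose reductase, which makes the osmolyte sorbitol, fell from 95.7 to 68.7 FPKM (-0.48 ± 0.33), and Tsc22d3, a glucocorticoid target, from 415 to 107 FPKM. Atp1b1, the beta subunit of the sodium pump, rose from 3.50 to 1024 FPKM (8.19 ± 0.65). In the renin-angiotensin and mineralocorticoid list 5 of 11 were higher and 1 lower (median 4.66). Atp6ap2, the prorenin receptor, rose from 19.0 to 104 FPKM, Agtr1a, the angiotensin receptor, was listed at 0 and 2.81 FPKM, and Nr3c1, the glucocorticoid receptor, fell from 20.3 to 10.8 FPKM (-0.92 ± 0.33).

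Cytokines and chemokines were higher in 7 of 15 and lower in 2 (median 3.28). Cxcl16, a chemokine of epithelium and macrophages, rose from 0.703 to 85.3 FPKM (6.92 ± 0.99), Cxcl10, an interferon-induced attractant of T cells, from 0.993 to 14.0 FPKM, and Il1b from 0.874 to 6.63 FPKM (2.92 ± 1.06). Il16 and Tgfb1, both made by T cells, fell from 47.7 to 2.14 FPKM and from 128 to 16.3 FPKM. Ifng and Tnf were low in both tissues and not called, at 0.833 and 2.76 FPKM and at 0.989 and 2.83 FPKM. Il17a was at 0 and 0.0377 FPKM and not tested. Interferon-stimulated genes were higher in 1 and lower in 9 of 15 (median -1.19), with Mx1, an antiviral GTPase, at 139 and 4.75 FPKM and Rsad2, viperin, the member that rose, at 0.339 and 1.77 FPKM.

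Cytosolic ribosomal protein genes were lower in 32 of 34 and higher in 1 (median -2.20). Their summed FPKM made up 14.3% of all circulating FPKM and 3.99% of all kidney FPKM. Rplp2 rose from 135 to 768 FPKM (2.51 ± 1.45), but its gene model spans 220908602 to 221347627 on chromosome 1, far more than a ribosomal protein gene, and copies of these genes elsewhere can share reads. Of 20 proteasome genes 4 were higher and 2 lower, with a median of 0.01. Cell cycle genes were higher in 2 of 17 and lower in 7 (median -0.53), with Mcm3, a replication helicase subunit, at 37.9 and 3.15 FPKM and Cdk1 the reverse, at 1.44 and 6.39 FPKM. Of 14 clock genes 6 were higher and 1 lower (median 1.23): Nr1d1, the repressor REV-ERB alpha, rose from 6.38 to 73.3 FPKM (3.52 ± 0.86), and Cry1 fell from 16.8 to 3.02 FPKM (-2.48 ± 0.75).

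Against SS/CRL rats on LS, few genes were called different in the tissue contrast on HS. On LS 53.5% of 22643 tested gene models were called between the tissues, 31.5% higher in the kidney and 22% lower. A z test of the difference between the fold changes, with Benjamini-Hochberg adjustment over 15975 gene models, called 2 of them (0.0125%). An unadjusted p of 0.05 was passed by 87 (0.545%). That share is smaller than the threshold itself, so the test called sparingly, and a gene not called cannot be taken as alike. The test takes the deposited errors as normal, which 4 pools a group cannot check. Hba1 was the only one with a symbol. It stood at 83.1 and 323 FPKM here, and at 42.6 FPKM in circulating and 1543 FPKM in kidney cells on LS, so that its rise was smaller by 3.22 ± 0.62 log2 units. With the error derived from the Cuffdiff p instead of its statistic, 2 gene models were also called, but Hba1 was not among them and Stub1, a ubiquitin ligase, was, at -2.47 log2 units. Hba2 was smaller by 2.91 ± 0.69 log2 units and was not called. The 7 matched gene models of the red cell list, tested or not, held 0.0874% of all kidney FPKM on HS and 0.376% on LS. The median of the CD3 list was -5.10 on HS and -4.33 on LS over the same 21 genes, and 16 of the 21 had the smaller log2 value on HS, against 53.1% of 14648 gene models measured in all 3 groups of rats. The median difference per gene was -0.39, the tables were normalised separately, and the test called none of the 21. All 12 proximal tubule transporters and all 15 enzymes that could be compared in the 3 groups had a smaller fold on HS than on LS. Both sides of these folds differed. For the circulating values the counts of genes listed at 0 are given above. In kidney cells the matched transporters held 0.618% of all FPKM on HS and 1.09% on LS, and the matched enzymes 1.30% and 1.96%. The part of each side in the smaller folds was not tested.

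In SS/MCW rats on HS 49% of 23439 tested gene models were called between the tissues, 30.6% higher and 18.4% lower. Against them, 6 of 16766 gene models were called different (0.0358%, or 0.107% with the other error). An unadjusted p of 0.05 was passed by 327 (1.95%), again a smaller share than the threshold itself. Of those called, Lyz2, Fcer1g and Il2rb are the ones with a symbol that are reported here, all genes of leukocytes. Lyz2, lysozyme, rose here from 58.1 to 99.2 FPKM and in SS/MCW rats from 42.6 to 577 FPKM, a difference of -2.99 ± 0.67. Fcer1g had 48.9 and 50.2 FPKM here and 28.6 and 257 FPKM there (-3.13 ± 0.71), and Il2rb, a chain of the interleukin-2 receptor, 96.5 and 5.83 FPKM here and 86.4 and 43.9 FPKM there (-3.07 ± 0.70). Cd27, a costimulator, was not called at -2.95 ± 0.73. With the error from the Cuffdiff p, none of these 3 was called.

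The lists followed the same order. Over the same 21 genes the CD3 list had a median of -5.10 here and -2.80 in SS/MCW rats. The median difference per gene was -1.87. All 21 had the smaller log2 value here, against 57.5% of the 14648 gene models. The kidney value of Cd3e was 2.49% of the circulating one here and 11.5% there. The tables were normalised separately, and apart from Il2rb and Fcer1g the test called no T cell or cytotoxic gene of the lists. All 19 cytotoxic and natural killer genes, all 21 leukocyte genes compared and all 11 macrophage genes compared also had the smaller log2 value here, with medians of -2.91 against -0.53, -4.56 against -2.35 and 2.03 against 4.76. Summed macrophage genes held 0.0984% of kidney FPKM here and 0.351% there. Of 13 thick limb and distal tubule genes 12 had a smaller fold here, and Umod had 1380 FPKM in kidney cells here and 5570 FPKM there. Respiratory genes went the other way in size, with 21 of 23 complex I genes at a larger fold here (medians 2.07 and 1.63).

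**Figure D4:**
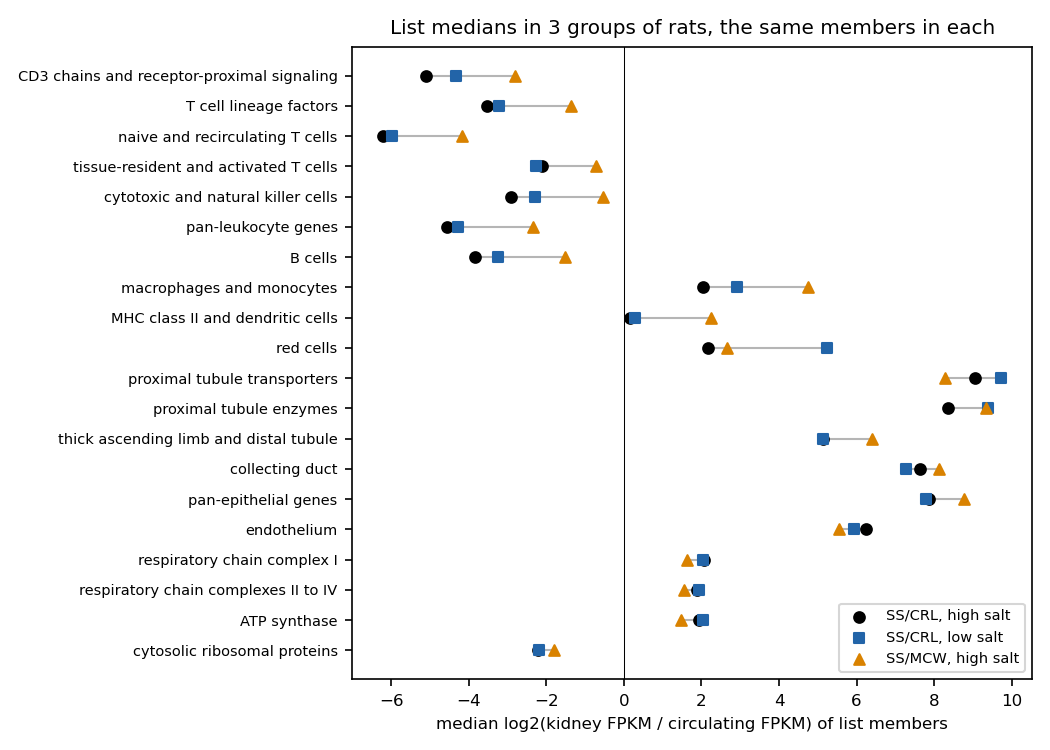
Median log2 fold change, kidney over circulating, of 20 gene lists over the members measured in all 3 groups of rats: SS/CRL on high salt (circles), SS/CRL on low salt (squares) and SS/MCW on high salt (triangles). The T cell lists lie furthest to the right in SS/MCW rats, and the red cell list lies furthest to the right in SS/CRL rats on low salt.

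**Figure D5:**
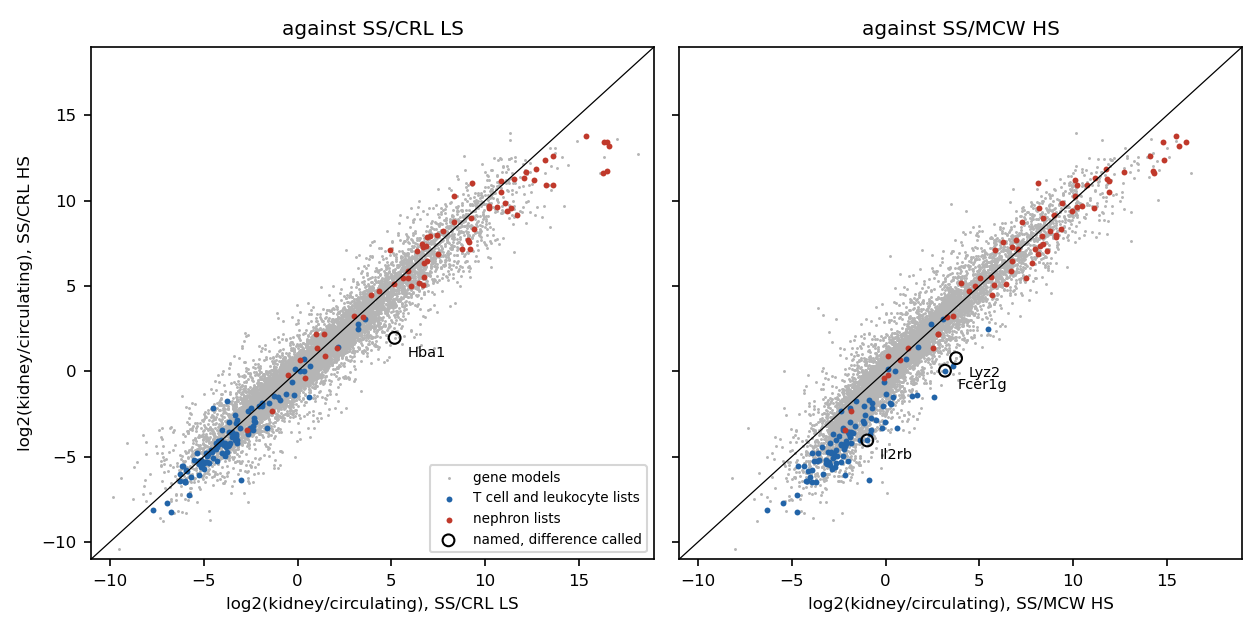
log2 fold change, kidney over circulating, in SS/CRL rats on high salt (vertical) against SS/CRL rats on low salt (left) and SS/MCW rats on high salt (right), 1 point per gene model that reached 1 FPKM in either tissue, with the line of equal values. Blue points are T cell and leukocyte genes, red points nephron genes, and rings mark Hba1 on the left and Lyz2, Fcer1g and Il2rb on the right, all below the line.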

How the data were processed

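RNA was extracted with TRIzol and sequenced from T cells of kidney and blood, 4 pools of 3 rats for each group. Per the submitters' processing notes, cutadapt, Trim Galore 0.2.5, TopHat2 2.1.1, Cufflinks 2.2.1 and Cuffdiff were used with build rn5. Each table compares 2 groups. The authors deposited 1 FPKM value per group, and per the file headers Cuffdiff gave each gene model a test statistic, a score with sign, and a p-value with its q-value. Values of single libraries and total counts were not used here, so depth is unknown. Tables were normalised separately.

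From the deposited FPKM, log2 of kidney over circulating was computed for all gene models with Python 3.11.15, pandas 2.3.3, numpy 2.4.6 and scipy 1.17.1. A call is the deposited q under 0.05 with a completed test. The smallest deposited p, 5e-05, gives q = 0.000144 in the authors' deposited table and holds 68.3% of calls. Medians of lists use members that reached 1 FPKM in either group and lie above 0 in both. Fold changes of different rats were compared by a z test, with Benjamini-Hochberg adjustment over all gene models. It was run on simulated data with normal noise drawn from the same errors, which cannot test whether those errors are right. Of 715 entries in 40 lists, naming 708 genes, 680 genes matched a gene model. Genes named are the 12 largest rises and falls, the 10 most abundant per tissue, the 5 highest listed at 0 in each direction, up to 6 called and 3 uncalled members per list, and the largest differences. Some genes that these rules name, called ones included, are not reported here, though counts and medians hold them. Further list members were named after their values were seen. The contrast, lists and named genes were chosen with earlier results of these data known. Alternatives were other thresholds, filters, error estimates, recentring, a pseudocount of 1 FPKM and the FPKM of other tables.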

Additional observations from a re-analysis of the deposited data

Results flagged for a closer look

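The kidney over circulating fold change differed between groups of rats, by the test of the difference itself, for the gene models given here. Against SS/CRL rats on low salt, Hba1 differed by -3.22 log2 units. A mitochondrial gene model without a symbol (chromosome M, 15347 to 15415, build rn5) differed by 1.01, at 195 and 10381 FPKM here and 452 and 11955 FPKM there, with a standard error of 0.0136. With the error derived from the deposited p, neither Hba1 nor this gene model was called.

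Against SS/MCW rats on high salt, Fcer1g differed by -3.13, Il2rb by -3.07 and Lyz2 by -2.99 log2 units. Gene models without a symbol differed by -1.42 (chromosome 5, 94064959 to 94082497) and by 3.68 (chromosome 10, 3757479 to 3759697). With the error derived from the deposited p, none of these was called.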

How the results depend on the processing

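The 12702 calls (60.1% higher in the kidney) became 11080 at q under 0.01, 12353 among gene models that reached 1 FPKM, 10827 with a minimum of 2-fold, 8322 among those above 0 in both groups (48.8% higher) and 7377 among those with 1 symbol on 1 gene model (52.6% higher). A normal p of the test statistic gave 5055 calls (52.1% higher), of which 4593 were shared with the 12702, and recentring by the median of well expressed genes gave 5036 (60.6% higher), of which 4536 were shared. Of the 12702 calls, 3507 higher ones had a circulating value of 0 and 736 lower ones a kidney value of 0. The filter above 0 in both groups leaves these out. The median used for recentring was -0.22. What else set these shifts was not tested. Over the named genes and all list members, 92 calls were lost and 25 gained under the normal p. The differences from SS/MCW rats numbered 18 in place of 6 with the error derived from the deposited p, 17 of them smaller here, and those from SS/CRL rats on low salt 2, Stub1 among them and Hba1 not. The salt tables and rat type tables shifted all log2 fold changes by 0.31 and 0.39, and of the called genes named Hspa5 alone changed sign, from -0.38 to 0.00789 in the rat type tables. Depth is unknown, and folds against circulating values near 0 have wide errors. No paired analysis was possible because the tables hold 1 value per group, and for the same reason no pool could be left out.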

Other observations

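Nkx2-1, a transcription factor of thyroid and lung epithelium and of the forebrain, was higher in kidney than in circulating cells (0.416 and 118 FPKM). It stood at 142 FPKM in the kidney cells of SS/CRL rats on low salt and at 44.7 FPKM in those of SS/MCW rats on high salt. It was singled out after its values were seen. The thyroid genes Tg, Tshr and Foxe1 were not tested, at 0.0528, 0.530 and 0.398 FPKM in the kidney cells, and Hhex, a factor of thyroid and of other tissues, was tested and not called at 2.23 and 1.75 FPKM. Napsa, a protease of lung and proximal tubule, reached 133 FPKM in the kidney cells, and Pax8, shared by thyroid and nephron, 0.125 and 102 FPKM.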
